A study of Mus musculus with 9 samples.

Results

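Transcripts of 10 genes that carry glucose, lactate and pyruvate across membranes, or that govern the entry of pyruvate into the mitochondrial citrate cycle, were followed in mouse liver macrophages, sorted according to the published methods as F4/80+ CD11b+ Gr1-low cells. They were chosen by symbol from the raw count table of 23413 genes: the glucose carriers Slc2a1, Slc2a3 and Slc2a6, the lactate carriers Slc16a1 and Slc16a3, the mitochondrial pyruvate carrier subunits Mpc1 and Mpc2, the pyruvate dehydrogenase subunit Pdha1 and the pyruvate dehydrogenase kinases Pdk1 and Pdk3. All 10 were in the table and all 10 passed the filter on low counts.

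The libraries came from male C57BL/6 mice that were 5 weeks of age when the diets began and stayed on them for 8 weeks. The normal diet group (ND) has 2 libraries. The group on a high-fat diet (HFD) injected with vehicle, PEG3000, is called Veh and has 3 libraries, and the group on HFD injected with diphenyleneiodonium (DPI), a flavoenzyme inhibitor that the study used as an agonist of the receptor GPR3, is called DPI and has 4. As the study's text describes it, DPI was given at 2 mg/kg every 5 days from week 3. The protocol field of the labels describes something else, treatment of the purified cells with 500 nM DPI or its solvent DMSO for 24 h. The library titles, which name the mice as treated, go with the first account. Groups follow the labels, in which each library is one numbered mouse, and no transgene is stated. Libraries are named below by group and mouse number, such as ND1.

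Cells take up glucose down its gradient through GLUT proteins of the Slc2a family, and glycolysis turns it into pyruvate. Pyruvate is either reduced to lactate, which leaves the cell with a proton through MCT proteins of the Slc16a family, or enters the mitochondrial matrix through the paired carrier of MPC1 and MPC2. In the matrix, the pyruvate dehydrogenase complex makes acetyl-CoA from it, and the PDK kinases switch that complex off by phosphorylating its E1 alpha subunit, PDHA1. Macrophages activated by inflammatory signals are known for strong glucose uptake and lactate release.

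The 3 comparisons, Veh against ND, DPI against Veh and DPI against ND, share their groups and are not independent of each other. Each was a contrast of 1 edgeR quasi-likelihood fit over 9 libraries, and a gene was called at an unadjusted p under 0.05 with at least a 2-fold change, the threshold of the published methods. Log2 fold changes are given with their standard error (SE) and adjusted p-values follow Benjamini and Hochberg over the 11393 genes tested. Levels are CPM, counts scaled by TMM factors to a common library total of 1e+06. Library totals were 3534325 to 15585775 counts, of which the ribosomal RNA precursor Rn45s took 27.0% to 44.5%, and 3 counts, taken as the smallest number told from none, equalled 0.184 to 1.02 CPM. ND1 and ND2 were less alike (rank correlation 0.740) than any other pair of libraries from 1 group (0.838 to 0.887). Of 8 Kupffer cell markers in the table, 2 had no count in either ND library and 2 in no Veh library, and their summed level was 142 to 187 CPM in ND, 55.3 to 81.5 CPM in Veh and 58.5 to 200 CPM in DPI. Most of the counts behind that sum came from Emr1, with 763 and 614 in ND, 277, 371 and 222 in Veh, and 2315, 219, 433 and 553 in DPI. Of the same list Clec4f was at 0 counts in 3 of the 9 libraries and Timd4 in 5. The 8 general macrophage markers summed to 15280 to 44425 CPM, mostly through Lyz2 (62983 to 700389 counts). The 5 monocyte markers in the table summed to 2635 to 5759 CPM. The cells are called liver macrophages here after the sort of the published methods. In RNA from a bulk sample, fewer cells of a type and less RNA per cell cannot be told apart.

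The promoters of the genes whose DPI and Veh libraries did not overlap, and that of Slc2a1, are printed since these are the members with the clearest differences. RefSeq sequences (GRCm38.p6, 250 bases before to 50 after the start) matched 9 of the 10 genes with 11 promoters, all but Slc2a3. They read 5′ to 3′ along the transcript. Capitals mark the core of the hypoxia response element, ACGTG or GCGTG, and the E-box CACGTG bound by MYC and related factors, which contains the core, on either strand (CACGC and CACGT are the cores read on the other strand).
Slc2a6, chr2:27027949-27028248, minus strand: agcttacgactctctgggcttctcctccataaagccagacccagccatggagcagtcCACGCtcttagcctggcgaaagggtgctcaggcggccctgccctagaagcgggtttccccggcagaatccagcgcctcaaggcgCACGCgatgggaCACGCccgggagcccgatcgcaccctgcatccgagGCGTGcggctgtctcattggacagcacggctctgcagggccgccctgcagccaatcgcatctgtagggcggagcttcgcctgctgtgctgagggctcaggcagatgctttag
Slc2a1, chr4:119108495-119108794, plus strand: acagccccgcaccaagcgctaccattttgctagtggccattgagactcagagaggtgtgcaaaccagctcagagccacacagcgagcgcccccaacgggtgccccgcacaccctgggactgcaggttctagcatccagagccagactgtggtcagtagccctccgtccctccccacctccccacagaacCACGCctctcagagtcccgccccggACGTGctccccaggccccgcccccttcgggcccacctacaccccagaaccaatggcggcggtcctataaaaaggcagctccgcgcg
Slc16a1, chr3:104638414-104638713, plus strand: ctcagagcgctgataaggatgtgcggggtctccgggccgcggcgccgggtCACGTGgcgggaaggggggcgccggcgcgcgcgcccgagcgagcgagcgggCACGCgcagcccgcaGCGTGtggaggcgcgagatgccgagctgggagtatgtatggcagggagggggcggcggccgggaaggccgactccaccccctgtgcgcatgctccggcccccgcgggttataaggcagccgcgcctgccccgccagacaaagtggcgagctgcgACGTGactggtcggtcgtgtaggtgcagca
Mpc2, chr1:165461010-165461309, plus strand: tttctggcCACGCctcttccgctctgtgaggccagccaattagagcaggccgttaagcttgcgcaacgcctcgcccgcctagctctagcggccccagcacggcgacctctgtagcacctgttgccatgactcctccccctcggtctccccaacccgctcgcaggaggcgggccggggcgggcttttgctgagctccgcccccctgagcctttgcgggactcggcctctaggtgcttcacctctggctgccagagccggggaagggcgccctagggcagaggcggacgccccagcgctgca

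The window of Slc2a6 held 4 cores, at bases -193, -109, -97 and -62 from the start site, that of Slc2a1 held 2, at -61 and -36, and that of Mpc2 held 1, at -242. Slc16a1 held 5, of which those at -200 and -199 form an E-box, the single E-box in the 11 promoters. At least 1 core was present in 9 of the 11 promoters (a second promoter each of Mpc1 and Pdk1 had none), against 43.8% of all 32851 RefSeq mouse promoters of the same length, and an E-box was present in 7.15% of them. The 11 promoters had a GC content of 40.3% to 73.7%, and cores contain CG. A match describes letters in these windows and not a bound site.

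Slc2a6 was the gene of the 10 whose groups stood farthest apart by the test. It encodes GLUT6, a hexose carrier found mostly in lysosomal membranes and raised in macrophages by inflammatory stimuli, and lies at chr2:27021363-27027998 on the minus strand (GRCm38). Its level was 37.2 and 60.9 CPM in ND, 125, 85.8 and 105 CPM in Veh, and 60.8, 34.6, 55.3 and 64.0 CPM in DPI. Every Veh library lay above every ND and every DPI library, and ND and DPI overlapped.

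For Veh against ND the log2 fold change of Slc2a6 was 1.10 (SE 0.38), or 2.15-fold, which passed the threshold with an edgeR adjusted p = 0.286. It was the only called gene of the 10 in this comparison, where 11.7% of all genes tested were called and 7.03% were called as higher. It was also the only one whose groups did not overlap, against 27.5% of all genes (15% higher), and at an unadjusted p under 0.05 alone it was 1 of 10, against 13%. The call rested on ND1, since the log2 fold change was 0.80 without that library and no longer passed, as with library size scaling (0.82).

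For DPI against Veh the log2 fold change of Slc2a6 was -0.97 (SE 0.31), a level 0.512 times that in Veh, with an edgeR adjusted p = 0.999. By p it ranked number 42 of 11393 genes, but the change fell just short of 2-fold, so none of the 10 genes was called, against 2.84% of all genes. At an unadjusted p under 0.05 alone it was the single gene of the 10, against 4.13% of all genes. Its unadjusted p stayed under 0.05 in all 19 alternative analyses (0.00296 to 0.0369, log2 fold changes of -1.09 to -0.81). The size passed 2-fold in 4 of them, namely the replicate block (-1.07) and the fits without Veh2 (-1.09), DPI1 (-1.03) or DPI4 (-1.06). For DPI against ND the log2 fold change was 0.14 (SE 0.35), a sign that turned under library size scaling. Both of the larger contrasts contain the same 3 Veh libraries.

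Besides the Kupffer cell list, 5 other marker lists placed all Veh libraries on one side of ND by their summed level, although the gate on F4/80, CD11b and Gr1 is meant to leave most of these cells out. The summed T and NK cell markers (9 of 9 in the table) were 58.1 and 230 CPM in ND and 249 to 286 CPM in Veh, and the summed B cell markers (5 of 5) were 14.9 and 69.1 CPM in ND and 93.4 to 179 CPM in Veh. The summed sinusoidal endothelial markers (7 of 7 in the table) went the other way, with 120.02 and 185 CPM in ND and 9.43 to 12.9 CPM in Veh, as did the summed hepatocyte markers (8 of 8), with 145 and 219 CPM in ND and 89.2 to 114 CPM in Veh, and the summed eosinophil markers (6 of 7), with 103 and 73.6 CPM in ND and 59.0 to 71.5 CPM in Veh. Single genes did not all move with their sum: of the endothelial list 3 were called as lower and Pecam1 as higher, and of the hepatocyte list 3 as lower and Ass1 as higher. Most eosinophil marker counts in ND and Veh came from Ear2, with 529 and 364 in ND and 298, 339 and 210 in Veh. Prg2, Epx and Ear1 had 0 or 1 counts in ND and 0 to 10 in Veh. Of the eosinophil list 0 genes were called for Veh against ND. In DPI each of these 5 sums overlapped Veh. Of the eosinophil list 3 genes were called as higher for DPI against Veh, among them Prg2, with 0, 10 and 0 counts in Veh and 1296, 265, 2 and 468 in DPI. In that comparison 2 endothelial markers, Stab2 and Clec4g, and 2 general macrophage markers, C1qa and C1qc, were also called as higher. Of the T and NK list 0 genes were at 0 in all ND libraries and 1, Cd4, in all Veh libraries. For Veh against ND, 2 genes of that list and 1 of the B cell list were called as higher. In the same comparison 1 gene each of the Kupffer cell and general macrophage lists was called as lower. Of the 5 monocyte markers in the table, 1 was called as higher and 1 as lower. The part of these cells in the Slc2a6 difference was not tested. The summed neutrophil markers overlapped between the groups, but 2 of the 8, Mmp8 and Camp, were called as lower for Veh against ND and 3, Ltf, Camp and Ngp, as higher for DPI against Veh. With the level of the list as a covariate, an analysis added after seeing the data, the log2 fold change of Slc2a6 was 1.02 for Veh against ND and -0.87 for DPI against Veh.

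**Figure D1:**
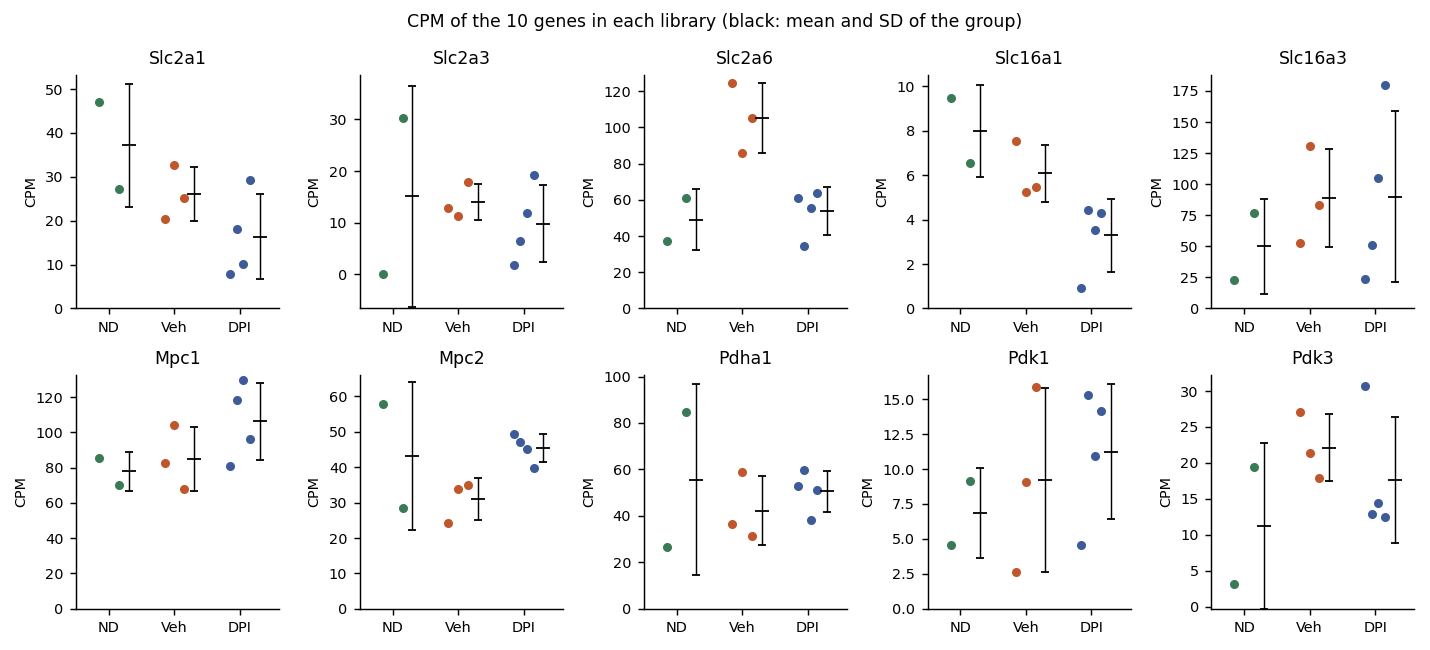
CPM of each of the 10 genes (vertical axes, 1 scale per gene) in the 2 ND, 3 Veh and 4 DPI libraries (points), with the mean and SD of each group in black. The Veh libraries of Slc2a6 (85.8 to 125 CPM) stand clear of both other groups, and the DPI libraries of Slc16a1 (0.919 to 4.42 CPM) lie below all others.

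Slc2a1 encodes GLUT1, the widespread basal glucose carrier of the plasma membrane (chr4:119108711-119137983, plus strand). Its level was 47.0 and 27.3 CPM in ND, 20.4, 32.6 and 25.3 CPM in Veh, and 7.91, 18.0, 10.02 and 29.3 CPM in DPI. Of the DPI libraries 3 lay below every ND and Veh library, and DPI4 lay above ND2 and above 2 of the Veh libraries, so the groups overlapped in each comparison.

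For DPI against ND, Slc2a1 was called as lower, with a log2 fold change of -1.19 (SE 0.53, edgeR adjusted p = 0.454). It was the only one of the 10 called there, against 9.29% of all genes in either direction and 3.05% as lower, and 1 of 10 by unadjusted p alone, against 10.7%. The call was lost in 8 of 19 alternative analyses, which were the fit of ND and DPI alone (-1.17) and those without ND1, any 1 of the Veh libraries, DPI1, DPI2 or DPI3. The log2 fold change ranged from -1.69 to -0.74 over the alternatives. For DPI against Veh it was -0.68 (SE 0.48), and Slc2a1 passed the threshold there only without DPI4 (-1.14) and with the replicate block (-1.16). For Veh against ND it was -0.51 (SE 0.57). Other cells' markers also differed between DPI and ND. Of the erythroid list (7 of 9 in the table) 3 genes, Hba-a1, Hba-a2 and Hbb-b2, were called as lower, and 3 genes each of the eosinophil and the T and NK lists as higher. Also called were 2 hepatocyte markers as lower and 1 gene each of the B cell, dendritic cell and sinusoidal endothelial lists as higher. The erythroid sum was 3455 and 509 CPM in ND, 350, 2180 and 104 CPM in Veh, and 522, 269, 149 and 317 CPM in DPI. It was highest in ND1 and Veh2, the libraries with the highest Slc2a1 of their groups, whereas in DPI it was highest in DPI1, the library with the lowest Slc2a1. The summed dendritic cell markers (6 of 6) were 55.2 and 61.3 CPM in ND and 64.2 to 134.5 CPM in DPI. The part of these cells in the Slc2a1 difference was not tested. The opposite signs of Slc2a1 and Slc2a6 in that contrast were not tested against each other.

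Slc2a3 encodes GLUT3, a glucose carrier of high affinity that leukocytes and neurons use (chr6:122727809-122801640, minus strand). It had 0 and 30.3 CPM in ND, 12.9, 11.2 and 17.8 CPM in Veh, and 1.84, 6.45, 11.9 and 19.2 CPM in DPI. The ND libraries held both the lowest and the highest value of all 9, and the 0 in ND1 at a total of 4666522 counts allows a level of up to 0.546 CPM. Its log2 fold changes were -0.11 (SE 1.26) for Veh against ND, -0.50 (1.06) for DPI against Veh and -0.62 (1.18) for DPI against ND, with the largest standard errors of the 10 genes. A processed pseudogene, Gm4482, lies within it on the same strand. Without ND2, which leaves ND1 as the whole group, the fitted log2 fold change for Veh against ND was 9.56, which depends on the prior count and is no bound.

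The lactate carriers split by level. Slc16a3 encodes MCT4, the exporter typical of cells with high glycolysis (chr11:120948480-120960868, plus strand). It had 23.1 and 76.9 CPM in ND, 52.4, 131 and 83.0 CPM in Veh, and 23.4, 51.3, 105 and 179.8 CPM in DPI. Its DPI libraries spanned 7.70-fold, up to the highest value of all libraries, and every group overlapped every other. The log2 fold changes were 0.83 (SE 0.72) for Veh against ND, 0.02 (0.59) for DPI against Veh and 0.85 (0.69) for DPI against ND. The second of these changed sign in 7 of 19 alternatives. The comparisons with ND turned on its 2 libraries, with 0.22 and 0.23 without ND1 and 1.97 and 1.98 without ND2, where Slc16a3 passed the threshold in both.

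Slc16a1 encodes MCT1, which carries lactate and pyruvate either way (chr3:104638668-104658462, plus strand). It had 9.47 and 6.54 CPM in ND, 7.55, 5.26 and 5.45 CPM in Veh, and 0.919, 4.42, 3.53 and 4.29 CPM in DPI. Every DPI library lay below every Veh and every ND library, while Veh and ND overlapped. Its promoter, printed above, is the one with the E-box. The counts behind these values were small, at 13 to 52 per library. The log2 fold change was -0.90 (SE 0.76, edgeR adjusted p = 0.999) for DPI against Veh and -1.30 (SE 0.83, adjusted p = 0.594) for DPI against ND, and neither passed the threshold. For DPI against Veh the groups of 3 of the 10 genes did not overlap, Slc2a6 and Slc16a1 as lower and Mpc2 as higher, against 5.85% of all genes (2.48% lower, 3.38% higher). Between DPI and ND it was the only such gene of the 10, against 20.2% of all genes (8.5% lower). When genes needed 10 counts or more in each library to be tested, Slc16a1 was called for DPI against ND (-1.31).

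**Figure D2:**
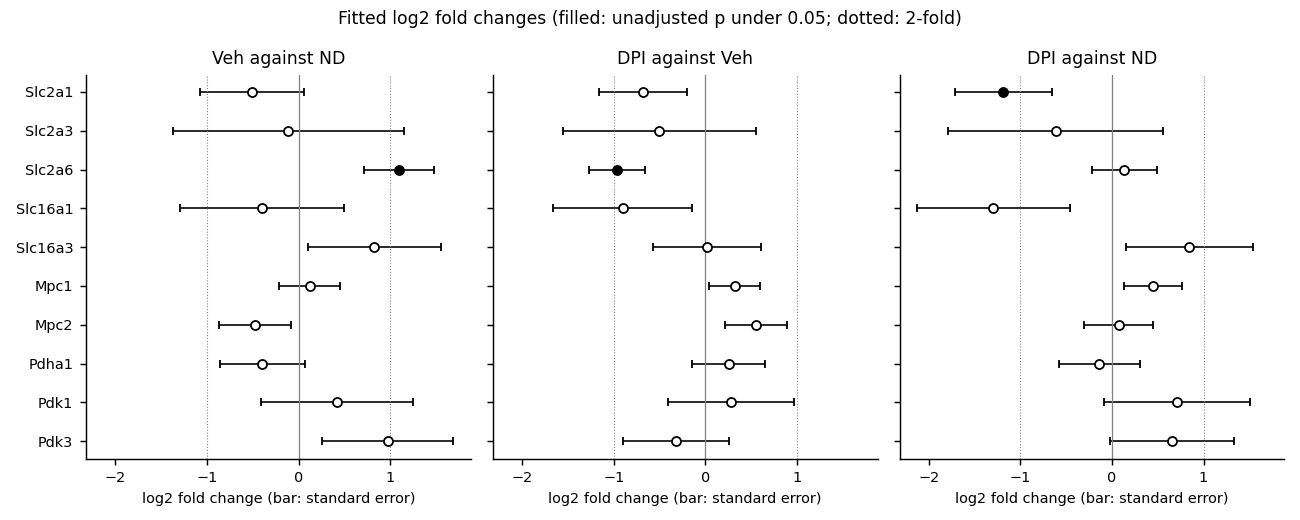
Fitted log2 fold changes (horizontal axes) of the 10 genes (rows) with their standard errors, 1 panel for each comparison, with dotted lines at 2-fold and filled points for an unadjusted p under 0.05. Only Slc2a6 (1.10 for Veh against ND, -0.97 for DPI against Veh) and Slc2a1 (-1.19 for DPI against ND) have filled points.

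Mpc1 and Mpc2 encode the subunits that together form the pyruvate carrier of the inner mitochondrial membrane. Mpc2 (chr1:165460637-165481214, plus strand) had 57.9 and 28.4 CPM in ND, 24.2, 33.7 and 34.9 CPM in Veh, and 49.3, 47.2, 45.3 and 39.9 CPM in DPI. Every DPI library lay above every Veh library, and the ND libraries lay on both sides of the DPI group. Its log2 fold change for DPI against Veh was 0.55 (SE 0.34, edgeR adjusted p = 0.999), positive in all 19 alternatives (0.40 to 0.64) and past 0.05 in none of them. For Veh against ND it was -0.48 (SE 0.39), with the opposite sign without ND1 (0.13). Against ND, the DPI value was 0.07 (SE 0.38), negative under library size scaling and without ND2.

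Mpc1 (chr17:8282904-8297661, plus strand) had 85.6 and 70.2 CPM in ND, 82.6, 104 and 67.9 CPM in Veh, and 81.0, 119, 129.5 and 96.0 CPM in DPI. The groups overlapped throughout, although the 2 highest values were both DPI. The log2 fold changes of Mpc1 were 0.12 (SE 0.33) for Veh against ND, negative under library size scaling, 0.32 (0.28) for DPI against Veh and 0.45 (0.32) for DPI against ND. An overlapping gene on the other strand, 4930506C21Rik, could share reads with it, since the strand setting of the counting is not given in the sources used here.

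Pdha1 encodes the E1 alpha subunit, the target of the kinases (chrX:160122209-160138413, minus strand, overlapping Map3k15 on the other strand). It had 26.6 and 84.6 CPM in ND, 36.6, 58.9 and 31.2 CPM in Veh, and 52.8, 59.8, 38.4 and 51.3 CPM in DPI. The ND libraries held the lowest and the highest value of all 9, and all groups overlapped. Its log2 fold changes were -0.39 (SE 0.47), 0.26 (0.40) and -0.14 (0.44) for Veh against ND, DPI against Veh and DPI against ND.

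Pdk1 (chr2:71873224-71903858, plus strand) encodes a kinase that hypoxia raises through HIF1. It had 4.55 and 9.15 CPM in ND, 2.66, 9.07 and 15.9 CPM in Veh, and 4.54, 15.3, 10.9 and 14.2 CPM in DPI, with all groups overlapping. Pdk3 (chrX:93764607-93832201, minus strand), a further kinase of the family, had 3.10 and 19.4 CPM in ND, 27.1, 21.4 and 17.8 CPM in Veh, and 30.7, 12.9, 14.5 and 12.4 CPM in DPI. Here 1 DPI library was the highest of all and the other 3 lay below every Veh library. For Pdk3 the log2 fold changes were 0.97 (SE 0.72) for Veh against ND, -0.32 (0.58) for DPI against Veh and 0.66 (0.68) for DPI against ND. Without ND1 the comparisons with ND gave 0.20 and -0.12, and without ND2 2.86 and 2.55, past the threshold in both. The corresponding values of Pdk1 were 0.42 (0.83), 0.28 (0.69) and 0.70 (0.80).

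Over the 10 genes the median log2 fold change was 0.00 for Veh against ND, -0.15 for DPI against Veh and 0.10 for DPI against ND, beside 0.03, 0.04 and 0.04 over all genes tested. The number of the 10 with a positive value was 5, 5 and 6, where 51.5%, 53.1% and 52.1% of all genes were positive. By edgeR's adjusted p 0 of the 10 passed 0.05 in any comparison, against 0.0614%, 0.0% and 0.00878% of all genes. The smallest adjusted p was 0.286, 0.999 and 0.454, and 1 gene of the 10 had an unadjusted p under 0.05 in each comparison. With DESeq2 0 of the 10 passed the adjustment either, whereas without ND2 1 did, Slc2a3, in both comparisons with ND. That fit leaves ND1, with 0 counts of Slc2a3, as the only ND library and takes its spread from the other groups. Over all genes the calls divided into 801 higher and 528 lower for Veh against ND, 171 and 153 for DPI against Veh, and 711 and 347 for DPI against ND. Under scaling by library size only, the median over all genes moved to -0.26, 0.12 and -0.17 and the calls to 539 higher and 933 lower, 196 and 101, and 546 and 624, so that small differences here are relative to the scaling.

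Per kilobase of annotated exon, Mpc1 had the highest level in every group, at 53.0 ± 7.40 CPM per kb in ND (SD, n = 2), 57.7 ± 12.3 in Veh (SD, n = 3) and 72.3 ± 14.9 in DPI (SD, n = 4). Slc2a6 was second in Veh, at 49.2 ± 9.06 CPM per kb, and number 3 in ND (22.9 ± 7.85) and DPI (25.1 ± 6.17), behind Mpc2. In Veh its libraries overlapped those of Mpc1 above it and lay clear of those of Mpc2 below it (30.2 ± 5.74 CPM per kb). In DPI the order was reversed between that pair, with Mpc2 (44.3 ± 3.93) clear of Slc2a6. Slc16a1 and Pdk1 were lowest in every group, at 0.743 ± 0.367 to 2.17 ± 0.932 CPM per kb, with Slc16a1 last in Veh and DPI. Of the 9 pairs of neighbours in the order, 9 overlapped in ND, 7 in Veh and 7 in DPI. In DPI the libraries of Mpc1 also lay clear of those of Mpc2, the next in order. MCT4 transcripts exceeded MCT1 transcripts by this measure in every library.

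**Figure D3:**
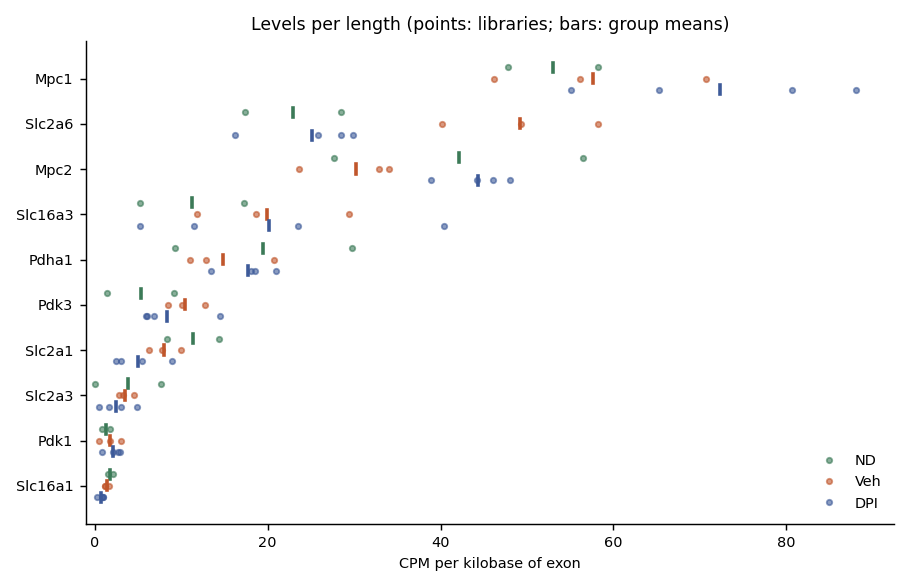
CPM per kilobase of exon (horizontal axis) of the 10 genes (rows, ordered by the Veh mean), with each library as a point and each group mean as a bar. Slc2a6 is second in Veh (49.2) and number 3 in ND (22.9) and DPI (25.1), whereas Mpc1 leads in each group.

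Ratios of paired genes inside a library do not depend on the scaling between libraries. The log2 ratio of Slc16a3 to Slc16a1 counts was 1.28 and 3.54 in ND, 2.78, 4.61 and 3.90 in Veh, and 4.62, 3.49, 4.86 and 5.37 in DPI. It averaged 2.41, 3.76 and 4.58 in the 3 groups, which overlapped. The difference of DPI from ND was 2.18 (two-sided exact permutation test, p = 0.133, smallest possible 0.0667) and that of DPI from Veh 0.82 (exact permutation p = 0.257, smallest possible 0.0286). The ratio of Mpc1 to Mpc2 averaged 0.93, 1.45 and 1.21 in ND, Veh and DPI, and that of Pdk1 to Pdk3 -0.27, -1.56 and -0.68. For Slc2a1 to Slc2a3 the averages were 4.43, 0.90 and 0.98, of which the first rests on the 0 counts of Slc2a3 in ND1 (9.01, against -0.15 in ND2). Across the 12 tests, 4 ratios in 3 comparisons, the smallest Benjamini-Hochberg p of the exact permutation tests was 0.6. For Veh against ND no such test can give a p below 0.1.

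**Figure D4:**
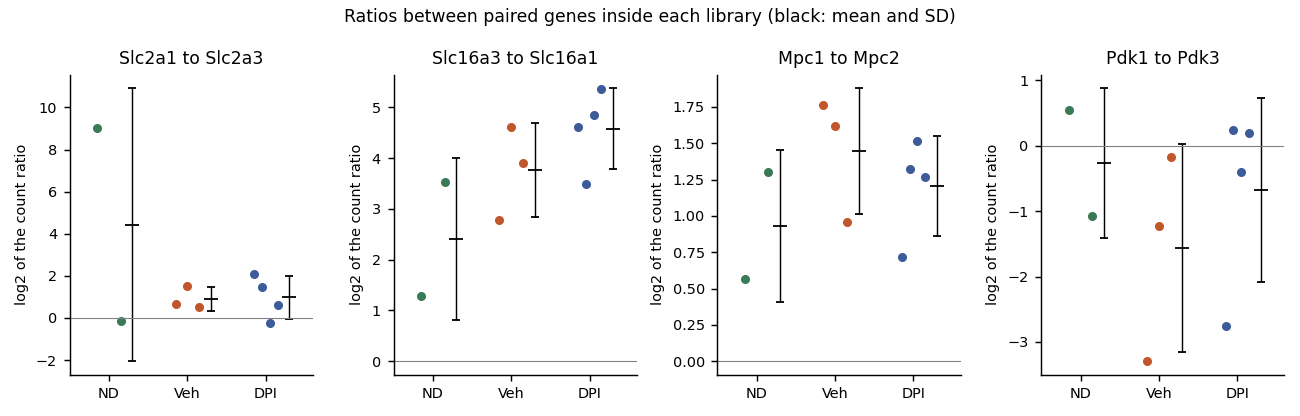
The log2 ratio of counts (vertical axes) for 4 pairs of genes in each ND, Veh and DPI library (points), with group means and SDs in black and a line at equal counts. The Slc16a3 to Slc16a1 ratio averages 2.41, 3.76 and 4.58 with overlapping groups, and ND1 alone lifts the Slc2a1 to Slc2a3 ratio to 9.01.

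The levels of the carriers were set beside those of the neutrophil markers, library by library. The 8 neutrophil markers in the table, none of them at 0 in a whole group, summed to 1242 and 3158 CPM in ND, 2392, 3228 and 3745 CPM in Veh, and 956, 825, 3715 and 5334 CPM in DPI. The 3 libraries with the lowest sums, ND1, DPI1 and DPI2, also had the 3 lowest levels of Slc16a3 (23.1, 23.4 and 51.3 CPM) and of Slc2a3 (0, 1.84 and 6.45 CPM). DPI4, with the highest sum, had the highest Slc16a3 of all (179.8 CPM) and the highest Slc2a3 and Slc2a1 of its group. Other values did not follow this order: Slc2a3 was highest in ND2 (30.3 CPM, at a sum of 3158), Slc2a1 and Slc16a1 were highest in ND1, and Slc2a1 was 10.02 CPM in DPI3, at a sum of 3715. A gate on low Gr1 is meant to leave neutrophils out. The part of neutrophil RNA in these levels was not tested. S100a8 and S100a9 had the highest counts of this list in most libraries, but Mmp8 exceeded S100a9 in ND1, and Mmp8 and Ngp exceeded both in DPI1. Mmp8 had 1378 counts in ND1, 4716 in DPI1 and 216 in DPI2, the libraries with the lowest sums. In Veh it had 335, 684 and 530. The marker Ly6g was not found in the table under that symbol. With the level of the list as a covariate, the log2 fold change of Slc2a3 was -0.11 for Veh against ND, -0.12 for DPI against Veh and -0.23 for DPI against ND, and that of Slc16a3 was 0.46, 0.28 and 0.74. None of these passed the threshold, with the covariate or without it.

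**Figure D5:**
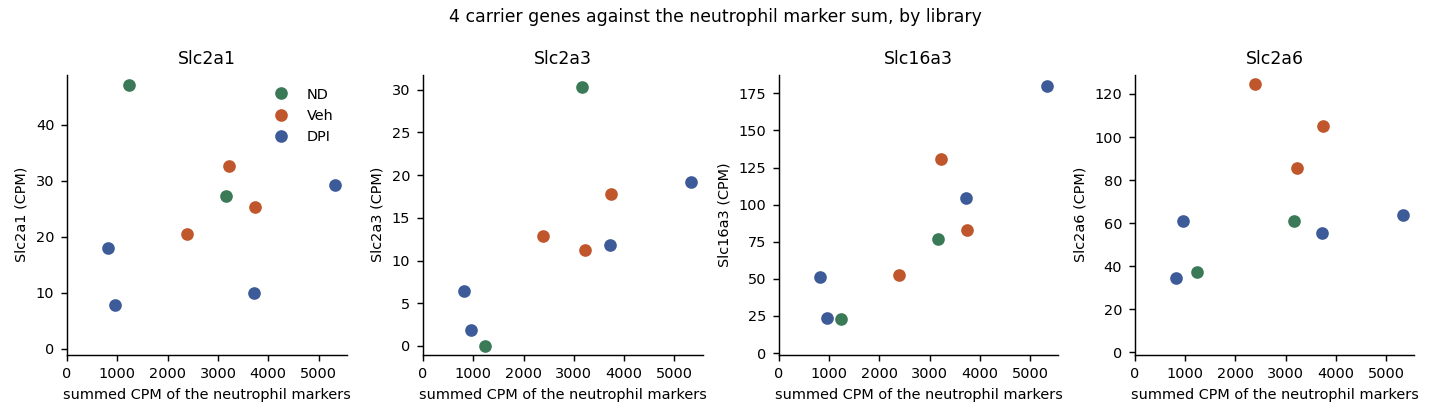
CPM of Slc2a1, Slc2a3, Slc16a3 and Slc2a6 (vertical axes) against the summed CPM of 8 neutrophil markers (horizontal axes), with 1 point per library coloured by group. Slc16a3 runs from 23.1 CPM at a sum of 1242 (ND1) to 179.8 CPM at 5334 (DPI4), while the 3 Veh libraries of Slc2a6 stand above the rest at sums of 2392 to 3745.

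The other genes of the same steps were taken from 5 lists by function, with 51 genes, all in the table, of which 25 were tested. For Veh against ND 2 were called as higher and 1 as lower, for DPI against Veh 0, and for DPI against ND again 2 and 1. As shares of 25 genes these counts lay near those of all genes tested (11.7%, 2.84% and 9.29%) and are no result about the lists. The median log2 fold change of the 25 tested genes was -0.01, 0.27 and 0.28. The called genes are described here by their values. Pdp1 and Pdp2 encode the phosphatases that switch pyruvate dehydrogenase back on, opposite to the kinases. Pdp2 had 102 and 89 counts in ND, 32, 36 and 10 in Veh, and 72, 23, 26 and 73 in DPI, or 17.6 ± 1.38, 5.37 ± 2.52 and 6.12 ± 1.75 CPM (SD). Both HFD groups lay below ND, with log2 fold changes of -1.71 (SE 0.70, edgeR adjusted p = 0.341) and -1.53 (SE 0.64, edgeR adjusted p = 0.437).

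Pdp1 went the other way, with 0 counts in both ND libraries, 0, 14 and 17 in Veh, and 53, 5, 82 and 22 in DPI. Against the floor of 3 counts in each ND library, its mean was at least 4.07-fold higher in Veh and at least 10.1-fold higher in DPI, although 1 Veh library was also at 0. These limits were lower without 1 library, at 2.29-fold for Veh without Veh3 and 4.33-fold for DPI without DPI3. The edgeR adjusted p of Pdp1 was 0.314 for Veh against ND and 0.335 for DPI against ND. It passed the filter on low counts only through its Veh and DPI libraries. Ldhb, the heart-type lactate dehydrogenase subunit, had 24 and 20 counts in ND, 106, 73 and 33 in Veh, and 260, 97, 57 and 95 in DPI. Its log2 fold change was 1.88 (SE 0.74, edgeR adjusted p = 0.329) for Veh against ND and 2.08 (SE 0.72, edgeR adjusted p = 0.367) for DPI against ND. It was called as higher in both, and 0.19 (SE 0.57) for DPI against Veh. Neither HFD group overlapped ND, as in 27.5% of all genes for Veh and 20.2% for DPI. Ldha, Pkm, Bsg and Emb, the last of these a pair of chaperones that bring MCT proteins to the membrane, were tested and not called in any comparison.

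In the comparison of DPI with Veh, 1 of the 25 genes had an unadjusted p under 0.05, near the 4.13% of all genes. This was Dld, the E3 subunit of pyruvate dehydrogenase, named here after its values were seen. It had 30.4 ± 8.46, 17.6 ± 3.72 and 31.7 ± 1.23 CPM (SD) in ND, Veh and DPI. Every DPI library lay above every Veh library, as in 3.38% of all genes, with a log2 fold change of 0.85 (SE 0.36, edgeR adjusted p = 0.999). The carriers of the first list were sparse: of 11 other glucose and hexose carriers 3 were tested, Slc2a4, Slc2a8 and Slc2a9, at group means of 1.65 to 5.66 CPM, and of 16 other monocarboxylate carriers and chaperones 6 were tested.

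For the 3 genes of the 10 with the smallest p, the tested genes with the most similar log2 CPM over the 9 libraries were looked up by Pearson's r among 11392 others. For Slc2a6 these were Smcr8 (r = 0.944), with 18.4 and 34.9 CPM in ND, 32.8 to 47.1 in Veh and 21.4 to 32.4 in DPI, and Ywhaz (r = 0.934), with 385 and 674 CPM in ND, 733 to 1429 in Veh and 482 to 821 in DPI. For Slc2a1 they were Gm16897 (r = 0.931), at 0 to 4.37 CPM in all libraries, and Ubald2 (r = 0.924), with 25.7 and 17.2 CPM in ND, 9.10 to 16.7 in Veh and 5.03 to 18.2 in DPI. For Mpc2 they were Kansl2 (r = 0.956) and the succinate dehydrogenase subunit Sdhb (r = 0.944), which had 86.5 and 115 CPM in ND, 82.8 to 97.8 in Veh and 102 to 108 in DPI. The points of each correlation share depth and scaling, and the best of many genes is high by selection, so the values describe these libraries alone.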

How the data were processed

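RNA-seq of polyA RNA from sorted liver macrophages was analysed for 9 libraries. The values deposited by the authors are raw counts, whole numbers for each gene that were not normalized. Their text names mm10, bowtie2 and RSEM, and the submitters' processing notes name TopHat2, edgeR and mm10. The 10 genes and all lists were chosen with earlier results of these data known.

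Counts were fitted with edgeR 4.0.16 (R 4.3.3): filterByExpr, TMM and glmQLFit over 3 groups, with Benjamini-Hochberg adjustment over 11393 genes. CPM used TMM-scaled library sizes. Ratios used counts plus 0.5 and two-sided exact permutation tests. The libraries carry mouse numbers, and no pair of libraries agreed within sampling noise. The 10 genes were named in all comparisons, other pathway genes when called, and 2 similar genes for each of the 3 with the smallest p.

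Alternative fits used RLE factors or plain library size, no filter or at least 10 counts in every library, used DESeq2 1.42.0, the likelihood ratio test, fits of 2 groups, the replicate block, removal of Rn45s, each library left out, a ratio pseudocount of 1 and, added later, a neutrophil covariate. On simulated counts for DPI against Veh (10992 genes, dispersion 0.423, log2 fold change 3), adjusted p called 58.7% of 196 changed genes, with 3 false calls, and the study's threshold 97.4%, with 476 false calls. Exon lengths and positions came from GENCODE M21. Floors cover counting error only.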

Additional observations from a re-analysis of the deposited data

Results flagged for a closer look

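Pdk3 in DPI1 stood apart from its group, with 30.7 CPM against 12.4 to 14.5 CPM in the other 3 DPI libraries. The gap took 0.889 of the range of the group, in a check for single far values that was run on 14 groups and marks about 1 in 20 by chance. DPI1 was the most deeply sequenced library, at 15585775 counts, and its Pdk3 value rests on 501 counts.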

How the results depend on the processing

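Over all values compared with an alternative, 826 kept their direction and side of the threshold, 65 moved, 36 changed sign, 11 passed the threshold only under the alternative and 10 lost it. The cause of these changes was not tested. With 2 to 4 libraries a group and a biological coefficient of variation of 0.650, differences of less than about 2-fold in single genes were seldom told from the spread, and Slc16a1, Pdk1 and Slc2a3 rest on few counts. Slc2a3 could not be fitted where 10 counts or more were required of each library, since ND1 has none.

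The number of the 10 genes called for Veh against ND was 1 and became 0 with library size alone. For DPI against Veh it was 0 and became 2 with the replicate block, and for DPI against ND it was 1 and became 2 with at least 10 counts in every library and 0 with the fit of the 2 groups only. Of the other pathway genes, 3 called for Veh against ND became 1 with the 2 groups only and 5 with the neutrophil covariate, and 0 for DPI against Veh became 1 without a filter. Over all genes, the 1329 calls for Veh against ND and 1058 for DPI against ND became 726 and 527 with at least 10 counts in every library, and the 324 for DPI against Veh became 202 with that filter and 602 without any filter. Genes with an adjusted p under 0.05 numbered 7, 0 and 1 in the 3 comparisons with edgeR's quasi-likelihood test, 280, 1 and 186 with its likelihood ratio test, 312, 2 and 219 with DESeq2 and 52 and 22 without a filter in the comparisons with ND. They numbered 1 for Veh against ND with library size alone, with at least 10 counts in every library and with the neutrophil covariate, and 0 in both comparisons with ND with the fit of the 2 groups or the replicate block. In DPI against Veh the split of calls was 65 higher and 137 lower with at least 10 counts in every library, 155 and 239 with the 2 groups only, and 101 and 209 with the neutrophil covariate. For DPI against ND it was 245 and 282 with at least 10 counts.

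Same-numbered libraries deviated from their group means with correlations of -0.022 to 0.084, and libraries with different numbers with -0.084 to 0.061. With 2 to 4 libraries a group, the deviations inside a group are tied to each other. These correlations therefore cannot decide whether the mouse numbers pair the libraries. With the replicate block the calls over all genes were 897, 401 and 818, and in DPI against Veh 150 were higher and 251 lower. The block changed the sign of Slc2a3 (0.86) and Pdk1 (-0.16) for Veh against ND, of Slc16a3 for DPI against Veh (-0.73), and of Slc2a6 (-0.049), Slc16a3 (-0.0052) and Pdha1 (0.22) for DPI against ND. Library size alone changed the sign of Mpc1 for Veh against ND (-0.16) and of Slc2a6 (-0.044) and Mpc2 (-0.16) for DPI against ND. Slc16a3 for DPI against Veh, near 0 to begin with, was also negative in the fit of the 2 groups (-0.015) and with Rn45s removed (-0.0049).

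When each library was left out in turn, the calls over all genes ranged from 1027 to 2634 for Veh against ND, 187 to 543 for DPI against Veh and 830 to 2626 for DPI against ND, with the highest counts of the comparisons with ND found without ND2. Genes with an adjusted p under 0.05 ranged from 1 to 568, 0 to 0 and 1 to 572, and the highest values were again those without ND2, where 1 of the 10 genes, Slc2a3 with its 0 counts in ND1, passed the adjustment in both comparisons with ND. With ND1 alone, the lone library is assumed to vary like the other groups. Of the 10 genes, 0 to 4, 0 to 2 and 0 to 4 were called. Without ND2 the 4 were Slc2a6, Slc2a3, Slc16a3 and Pdk3 for Veh against ND, when 21.4% of all genes were called, and Slc2a1, Slc2a3, Slc16a3 and Pdk3 for DPI against ND, when 21.3% were. Of the other pathway genes 2 to 5, 0 to 1 and 2 to 5 were called. For Veh against ND the log2 fold change ranged from -1.11 to 9.56 for Slc2a3, -0.049 to 0.31 for Mpc1, -0.87 to 0.13 for Mpc2, -0.99 to 0.70 for Pdha1, -0.16 to 1.04 for Pdk1, 0.22 to 1.97 for Slc16a3 and 0.20 to 2.86 for Pdk3. For DPI against Veh it ranged from -0.58 to 0.41 for Slc16a3 and -0.16 to 0.91 for Pdk1. For DPI against ND it ranged from -1.61 to 9.05 for Slc2a3, -0.17 to 0.56 for Slc2a6, -0.32 to 0.69 for Mpc2, -0.73 to 0.96 for Pdha1, 0.23 to 1.98 for Slc16a3 and -0.12 to 2.55 for Pdk3. The difference in the log2 ratio of Slc2a1 to Slc2a3 ranged from -8.12 to 1.046, -0.29 to 0.49 and -8.04 to 1.13 in the 3 comparisons, with the positive values for the ND comparisons without ND1. For DPI against ND it ranged from -0.10 to 0.64 for Mpc1 to Mpc2 and from -1.22 to 0.40 for Pdk1 to Pdk3.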
